A study of Mus musculus with 12 samples.

Results

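The genes encoding the subunits of the proteasome were described in T cells that had met a strong or a weak peptide at 2 doses. The members were the genes whose mouse symbol is Psma, Psmb, Psmc, Psmd or Psme followed by a number, without Psmb8, Psmb9 and Psmb10, which form the immunoproteasome and were kept as a comparison. This gave 38 genes on 71 probe sets, of 12393 genes on the array with a probe set of their own and 22690 probe sets in all. A probe set is a group of short probes for the same transcript, and its level is a log2 fluorescence value. Of the members, 37 genes and 60 probe sets passed an intensity filter (a mean of at least 4.47 log2 over all arrays), and the probe set with the highest mean stood for its gene. Psma8, a subunit known from the testis, was below it, at 2.81 to 3.37 log2 on the 12 arrays. Psme2 was measured only by a probe set that names several genes and was therefore not a member.

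The cells were 5CC7 T cells, which carry a transgenic T cell receptor, and they were transferred into B10.A mice by the tail vein. The recipients received 2 µg or 0.2 µg of the peptide MCC, the strong agonist, or of the peptide 102S, the weak agonist, by the same route. After 48 h the lymph nodes were pooled and the 5CC7 cells were sorted by flow cytometry, and each of the 4 groups had 3 arrays. No unstimulated 5CC7 cells were analysed here, and neither age nor sex is given in the labels, which do not say whether replicates came from separate animals, so the p-values speak of the spread among these samples alone. Part of that spread is between arrays that read as female and arrays that read as male, as given below. Those that read as female all carry the same replicate number. A difference between sexes therefore cannot be told apart from one between replicate numbers. The rest of the spread may be technical. The groups are bulk samples, in which fewer cells of a type and less RNA per cell cannot be told apart.

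The proteasome is the protease that degrades proteins tagged with ubiquitin in the cytosol and nucleus. Its core is a barrel in which rings of alpha subunits (Psma genes) gate the entry and rings of beta subunits (Psmb genes) hold the proteolytic sites, and a cap of ATPases (Psmc genes) and non-ATPase subunits (Psmd genes) binds, unfolds and feeds the substrate. Alternative caps, the activators (Psme genes), open the core without ubiquitin, and in T cells the proteasome degrades cell cycle and signalling proteins after activation.

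The sorted cells read as T cells. All 8 measured markers of CD4 T cells passed the filter, with Cd3e between 10.01 and 10.23 log2 on every array. They were not all even between groups, since Cd5 was called in 2 comparisons. Cd5 was higher with MCC at 0.2 µg by 1.11 log2 (adjusted p = 0.000173 in limma). It was also higher at 2 µg than at 0.2 µg of 102S, by 1.27 log2 (adjusted p = 0.000231 in limma). Of 7 measured B cell markers only Cd79b and Cd22 passed and Ms4a1 and Cd79a did not. Cd79b was higher with MCC at 0.2 µg by 1.26 ± 0.33 log2 (adjusted p = 0.0227), and Cd22 differed by 1.00 ± 0.30 at 2 µg with the arrays apart (adjusted p = 0.0516). The summed level of the B cell list lay between 7.18 and 7.70 log2 under 2 µg MCC, 7.27 and 7.35 under 0.2 µg MCC, 6.93 and 7.03 under 2 µg 102S and 6.82 and 7.59 under 0.2 µg 102S. Of 6 measured markers of CD8 T and NK cells 5 passed, Ncr1 did not, and 2 were called in each peptide comparison, all lower with MCC (Klrd1 and Gzma at 2 µg, Klrd1 and Prf1 at 0.2 µg). Cd8a and Cd8b1 were not called in either. The mean of Klrd1 ran from 4.65 log2 under 2 µg MCC to 8.63 under 0.2 µg 102S, and the summed level of the list lay between 8.10 and 8.42 log2 under 2 µg MCC, 8.48 and 8.88 under 0.2 µg MCC, 9.01 and 9.09 under 2 µg 102S and 9.70 and 9.83 under 0.2 µg 102S. The 4 of 8 myeloid markers that passed gave no such order, the summed level of the list lying between 7.19 and 7.88 log2. Replicate 1 of every group read as female (Xist between 11.72 and 12.27 log2) and replicates 2 and 3 as male (4.05 to 5.10). The difference between the 3′ and the 5′ probe set of β-actin, which widens as RNA is degraded, averaged 0.63 ± 0.12 log2 (SD, n = 3) under 2 µg MCC, 1.62 ± 0.81 under 0.2 µg MCC, 1.24 ± 0.41 under 2 µg 102S and 1.33 ± 0.88 under 0.2 µg 102S. The part of these differences in the results was not tested, except where a value without the arrays, or with the measure in the model, is given.

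The promoters of 3 members are shown because the results below turn on them. They are Psma1 and Psma6, the members called between the peptides, and Psmd8. Psmd8 had the largest difference between doses on the probe sets that stood for their genes. The sequences are the 200 bases before the transcript start in RefSeq (GRCm38.p6), on the strand of the gene, at chr7:114276117-114276316 (minus strand) for Psma1, chr12:55384022-55384221 and chr12:55398625-55398824 (both plus strand) for the 2 starts of Psma6, and chr7:29180674-29180873 (minus strand) for Psmd8. Capitals mark CCAAT (the letters of the NF-Y motif), GGGCGG (a GC box, the letters of the Sp1 motif), CCGGAAG (an ETS motif) and TGACNNNGC (an antioxidant response element core), each searched on both strands with overlaps allowed.
Psma1: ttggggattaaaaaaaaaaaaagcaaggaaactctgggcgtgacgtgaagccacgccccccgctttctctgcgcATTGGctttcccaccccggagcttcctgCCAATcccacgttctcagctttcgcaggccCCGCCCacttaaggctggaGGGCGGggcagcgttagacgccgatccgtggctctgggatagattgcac
Psma6, first start: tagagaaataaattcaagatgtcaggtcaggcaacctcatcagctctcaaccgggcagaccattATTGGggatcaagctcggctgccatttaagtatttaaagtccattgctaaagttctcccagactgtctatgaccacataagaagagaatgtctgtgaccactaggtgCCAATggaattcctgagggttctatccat
Psma6, second start: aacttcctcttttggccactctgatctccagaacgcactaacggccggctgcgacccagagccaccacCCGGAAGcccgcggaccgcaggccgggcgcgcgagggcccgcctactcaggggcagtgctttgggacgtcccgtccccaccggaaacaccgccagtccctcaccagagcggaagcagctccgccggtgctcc
Psmd8: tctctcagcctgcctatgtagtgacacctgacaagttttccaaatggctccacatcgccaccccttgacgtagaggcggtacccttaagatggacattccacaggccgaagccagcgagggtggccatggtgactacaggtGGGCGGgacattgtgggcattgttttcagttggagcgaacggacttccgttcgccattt
The windows differed in the letters they held. That of Psma1 held CCAAT and GGGCGG on both strands, the upstream window of Psma6 held CCAAT alone and its downstream window CCGGAAG, and that of Psmd8 held a single GGGCGG. Over the 31 members with a promoter in the RefSeq table, in windows from 250 bases before to 50 after the start, CCGGAAG was found in 12 (38.7%), against 8.86% of all 32851 promoters of this length. GGGCGG was found in 20 members (64.5%, against 35.7% of all promoters), CCAAT in 12 (38.7%, against 37.4%) and TGACNNNGC in 6 (19.4%, against 12.4%), namely Psmb5, Psmb6, Psmc6, Psmd9, Psmd12 and Psme4. A match is a description of letters and not of a bound site.

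The first comparison asked how the subunits differ between the strong and the weak peptide at 2 µg. None of the 37 subunit genes was called, that is, had an adjusted p under 0.05 in the limma fit over all probe sets, where 10.3% of the 13576 probe sets tested were called. At an unadjusted p under 0.05 there were 4 members, Psma1, Psma4, Psmc4 and Psmd8, all of them with the higher mean in MCC, against 23.5% of all probe sets. The differences were small: 25 of 37 lay above 0 (higher with MCC), the median was 0.10 log2, and the range went from -0.42 (Psmb3) to 0.50 (Psmc5). Over all probe sets the share above 0 was 45.1% and the median -0.036. For 35 members the 95% interval of the difference excluded a change of 2-fold in either direction, the exceptions being Psmb3 and Psmc5, and for 26 it excluded 1.5-fold. The latter held for 42.1% of all probe sets, whose median standard error was 0.18 log2 against 0.138 for the members. The number called was 1 (Psma1) without the third MCC 0.2 µg array, against 9.63% of all probe sets. It was 4 with only the 6 arrays of this comparison (12.2% of all probe sets). With the β-actin difference as a covariate it was 7 (24.6%), 5 of them higher and 2 lower (Psme1 and Psme4). With the replicate number as a block it was 3, all higher (Psma1, Psma4 and Psmd8), against 18.3% of all probe sets.

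At 0.2 µg more of the subunits lay higher with MCC. Psma1 and Psma6, both of the alpha ring, were called, both higher, which is 2 of 37 against 14.3% of all probe sets in either direction and 7.84% higher. Of the 37 differences 32 lay above 0, with a median of 0.18 log2 and a range from -0.16 (Psme4) to 0.51 (Psmb2), where 45.4% of all probe sets lay above 0 and their median was -0.038. An unadjusted p under 0.05 was found for 11 members, all higher with MCC (Psma1, Psma2, Psma4, Psma5, Psma6, Psmb1, Psmb2, Psmb6, Psmd9, Psmd10 and Psmd14), against 27.9% of all probe sets. All 37 intervals excluded 2-fold, and 21 excluded 1.5-fold (39.1% of all probe sets). The number called moved with single arrays, and so did the share of all probe sets called, given in brackets. It was 0 without the first 102S 0.2 µg array (8.46%) or the second MCC 0.2 µg array (7.74%). It was 1 without the second array of 102S at 2 µg (11.8%) or at 0.2 µg (8.45%). Without the third MCC 2 µg array it was 4 (16.7%), and without the third 102S 0.2 µg array 5 (18.2%). Without the first MCC 0.2 µg array it was 6 (20.5%). It was also 0 without the intensity trend (13.4% of all probe sets), 8 with the sex-linked type as a block (22.1%), 3 with replicates 2 and 3 alone (11%) and 17, all higher, with the β-actin difference as a covariate (26.8%). Psma1, Psma2, Psma5, Psma6, Psmb1, Psmb2, Psmb6 and Psmd14 were the 8 called with that block. The same genes and Psma4 were called with the replicate number as a block, 9 in all against 25.7% of all probe sets.

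Counts of groups that were fully apart were also taken. At 2 µg the 3 MCC arrays lay entirely above the 3 102S arrays for 12 members (Psma1, Psma4, Psma5, Psma7, Psmb4, Psmc3, Psmc4, Psmc5, Psmd2, Psmd6, Psmd8 and Psmd14) and entirely below them for Psme4. Over all probe sets these shares were 12.3% and 19.9%. The other tested probe sets of Psme4, given below, overlapped at that dose. Over the alternatives the first count ran from 12 to 18 and the second from 1 to 6, the latter without the second MCC 2 µg array. At 0.2 µg the arrays lay entirely above for 14 members (Psma1, Psma2, Psma5, Psmb1, Psmb5, Psmb6, Psmb7, Psmc6, Psmd1, Psmd9, Psmd10, Psmd11, Psmd13 and Psmd14) and entirely below for none, against 13.9% and 14.6%. For Psmd11 the nearest values were 9.55 and 9.54 log2. Its other tested probe sets gave -0.26 (arrays entirely below), -0.04, 0.14 and 0.20 at that dose, the last 3 with overlap. Over the alternatives the 14 ranged from 7, with each array centred on its median, to 22, without the 2 arrays of widest β-actin difference. With an array left out, fewer values remain to overlap. The share of all probe sets was not taken under the alternatives at either dose.

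**Figure D1:**
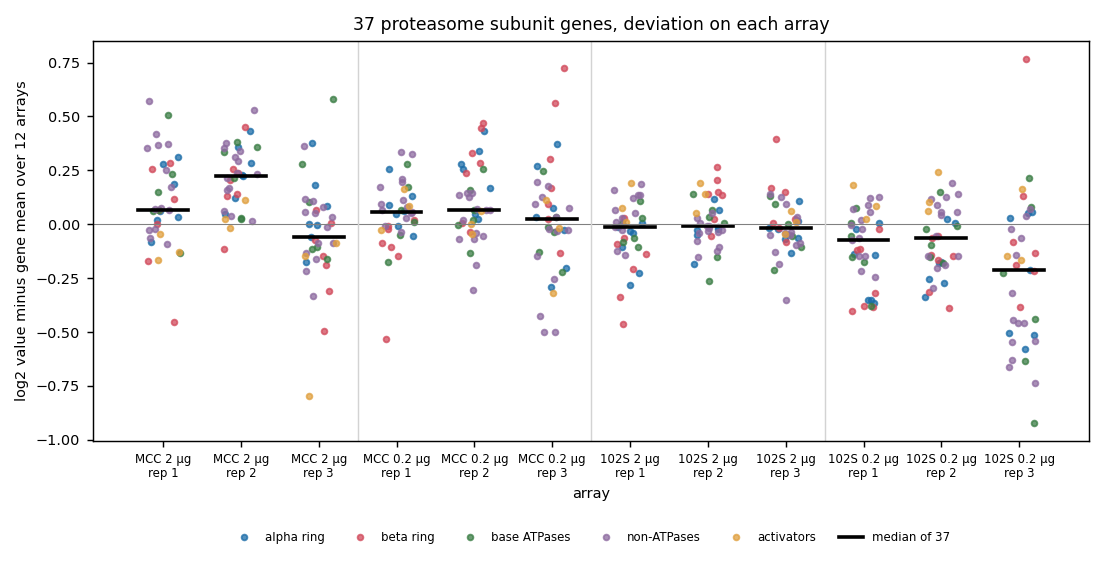
Each point is 1 of the 37 tested proteasome subunit genes on 1 array, coloured by role, with its log2 value minus that gene's mean over the 12 arrays on the vertical axis and the arrays by group on the horizontal axis, and black lines are medians. The 3 arrays under 0.2 µg 102S have medians between -0.21 and -0.06. These lie below the 9 others except the replicate 3 array under 2 µg MCC (-0.06). The median of that array over all tested probe sets, which is not drawn, was -0.11.

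Taken over the 37 members, the median deviation from each gene's own mean showed which arrays were high and low. It was 0.07, 0.22 and -0.06 log2 on the 3 arrays under 2 µg MCC, 0.06, 0.07 and 0.03 under 0.2 µg MCC, -0.01, 0.00 and -0.02 under 2 µg 102S, and -0.08, -0.06 and -0.21 under 0.2 µg 102S. The peptides overlapped at 2 µg and did not overlap at 0.2 µg. At 2 µg the replicate 3 array under MCC was the lowest of the 6. Over all tested probe sets its median deviation was -0.11 log2, against -0.03 to 0.06 on the other arrays. Its subunit value of -0.06 thus lay above its value for all tested probe sets. Under 0.2 µg 102S the values for all tested probe sets were 0.04, 0.04 and -0.02, above those of the subunits. For the subunits the replicate 3 array under 0.2 µg 102S was the lowest of all, and it also had the widest β-actin difference (2.35 log2). Without it and the third MCC 0.2 µg array (2.33), the members called were 4 at 2 µg (12.3% of all probe sets) and 3 at 0.2 µg (10.8%). The mean of the group that received 0.2 µg of 102S was the lowest of the 4 for 26 of 37 members, against 27.3% of all probe sets. The highest mean was in 2 µg of MCC for 20 members and in 0.2 µg of MCC for 12 (28.2% and 22.5% of all probe sets). The distance from the lowest to the highest group mean ran from 0.11 log2 (Psma3) to 0.84 (Psmd8), with a median of 0.35 over the members and 0.42 over all probe sets.

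Among the alpha ring genes, which form the outer rings and the gate of the core, all 7 tested differences at 0.2 µg lay above 0 (median 0.34 log2), and 6 of 7 at 2 µg (median 0.19). Psma1 read 10.36, 10.44 and 10.46 log2 under 2 µg MCC, 10.17, 10.34 and 9.88 under 0.2 µg MCC, 10.04, 10.15 and 10.02 under 2 µg 102S and 9.73, 9.83 and 9.57 under 0.2 µg 102S. Its MCC arrays lay above its 102S arrays at both doses, and the 2 µg arrays above the 0.2 µg arrays of the same peptide. At 0.2 µg it was higher with MCC by 0.42 ± 0.12 log2 (SE), a 1.34-fold difference with a 95% interval of 0.17 to 0.67 log2 (adjusted p = 0.0305), and at 2 µg the difference was 0.35 ± 0.12 (adjusted p = 0.0775). Over the 24 alternative settings its adjusted p at 0.2 µg ran from 0.00168 to 0.147, with 17 of them under 0.05, and its other 2 probe sets were below the filter. With replicates 2 and 3 alone, those that read as male, it was 0.128, and with the sex-linked type as a block 0.0178.

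Psma6, another alpha subunit, read 10.89, 10.95 and 10.77 log2 under 2 µg MCC, 10.82, 11.26 and 11.20 under 0.2 µg MCC, 10.60, 10.80 and 10.81 under 2 µg 102S and 10.46, 10.49 and 10.88 under 0.2 µg 102S. Here the groups at 0.2 µg overlapped, since the third 102S array exceeded the first MCC array. The difference at 0.2 µg was 0.48 ± 0.14 log2, or 1.4-fold, with an interval of 0.19 to 0.78 (adjusted p = 0.0343), and that at 2 µg was 0.14 ± 0.14. Its 2 other tested probe sets gave 0.31 ± 0.10 (adjusted p = 0.0532) and 0.25 ± 0.14 at 0.2 µg. Across alternatives its adjusted p ran from 0.000416 to 0.154, with 16 of 24 under 0.05. It was 0.0229 with replicates 2 and 3 alone and 0.00687 with the sex-linked type as a block.

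Psma4, also of the alpha ring, was not called. It read 10.66, 10.78 and 10.53 log2 under 2 µg MCC, 10.48, 10.63 and 10.06 under 0.2 µg MCC, 10.32, 10.30 and 10.28 under 2 µg 102S and 10.21, 10.17 and 9.77 under 0.2 µg 102S. The peptides were apart at 2 µg (0.36 ± 0.15, adjusted p = 0.168) and overlapped at 0.2 µg (0.34 ± 0.15, adjusted p = 0.163), the third array being the lowest of its group for both peptides.

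**Figure D2:**
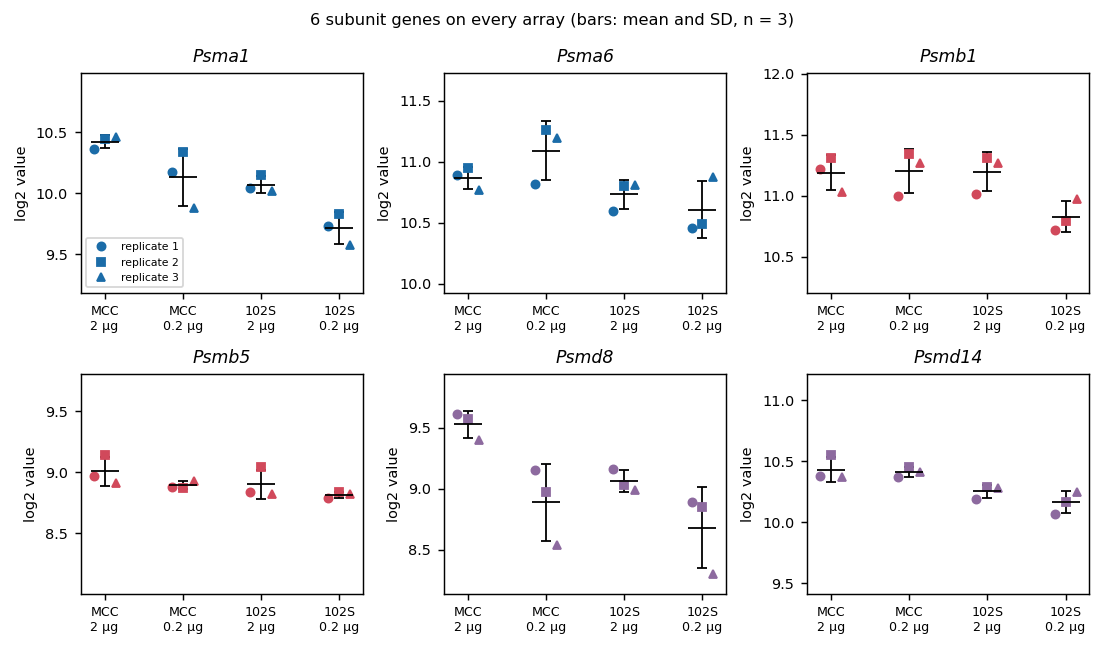
The log2 value (vertical axis) of 6 subunit genes is plotted for every array of the 4 groups (horizontal axis), with a marker shape for each replicate and black bars for the group mean and SD (n = 3). Psma1 and Psmd14 have all MCC arrays above the 102S arrays of the same dose, Psmb1 has 0.2 µg of 102S below all other arrays, and Psmb5 stays between 8.79 and 9.14.

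The beta ring showed its largest median at 0.2 µg, 0.33 log2 with all 7 differences above 0 and none called, against 0.05 with 4 of 7 above 0 at 2 µg. Psmb5, the chymotrypsin-like site and the target of clinical proteasome inhibitors, read 8.97, 9.14 and 8.91 log2 under 2 µg MCC, 8.88, 8.87 and 8.93 under 0.2 µg MCC, 8.84, 9.04 and 8.82 under 2 µg 102S and 8.79, 8.84 and 8.82 under 0.2 µg 102S. All 12 values thus lay within a narrow band. Its peptide differences were 0.10 (95% interval -0.12 to 0.33) at 2 µg and 0.07 (-0.15 to 0.30) at 0.2 µg, so that both intervals lay within 1.5-fold (0.58 log2 on either side).

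Psmb6, the caspase-like site, read 9.23, 9.36 and 9.08 log2 under 2 µg MCC, 9.22, 9.56 and 9.53 under 0.2 µg MCC, 9.02, 9.25 and 9.25 under 2 µg 102S and 9.11, 9.08 and 9.04 under 0.2 µg 102S. The 0.2 µg MCC arrays lay above the 0.2 µg 102S arrays, by 0.36 ± 0.12 (adjusted p = 0.0695), and the 2 µg groups overlapped (0.05 ± 0.12). Psmb7, the trypsin-like site, read 7.46, 7.63 and 6.87 log2, 7.09, 7.46 and 7.27, 7.04, 7.32 and 7.16, and 6.86, 7.01 and 6.96 in the same order of groups. The replicate 3 array under 2 µg MCC was the lowest of the 6 arrays at that dose, and the 0.2 µg groups did not overlap. The differences were 0.15 ± 0.19 at 2 µg and 0.33 ± 0.19 at 0.2 µg (adjusted p = 0.277).

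The beta subunits without a proteolytic site gave differing patterns. Psmb1 read 11.22, 11.31 and 11.03 log2 under 2 µg MCC, 11.00, 11.34 and 11.27 under 0.2 µg MCC, 11.01, 11.31 and 11.27 under 2 µg 102S and 10.72, 10.79 and 10.97 under 0.2 µg 102S. The last group lay below the 9 other arrays. It differed from MCC at the same dose by 0.37 ± 0.12 log2 (adjusted p = 0.0557) and from 2 µg of 102S by the same 0.37 ± 0.12 (adjusted p = 0.151). Psmb4 read 10.78, 10.78 and 10.59 log2 under 2 µg MCC, 10.54, 10.53 and 10.39 under 0.2 µg MCC, 10.55, 10.47 and 10.53 under 2 µg 102S and 10.50, 10.47 and 10.14 under 0.2 µg 102S. For Psmb4 the 2 µg MCC arrays were apart from the rest, by 0.20 ± 0.11 from 102S at that dose and by 0.23 ± 0.11 from the lower dose of MCC, neither of which was called. Psmb3, named after its values were seen because it sets the lower end of the range at 2 µg, had discordant probe sets, since the representative gave -0.42 ± 0.35 and the other 0.17 ± 0.13. The representative also varied most within groups, with SDs between 0.21 and 0.66 log2.

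The base ATPases, the ring of motors that unfolds substrates, had 4 of 6 differences above 0 at 2 µg (median 0.16 log2) and 6 of 6 at 0.2 µg (median 0.18), with none called. Psmc5 had the largest difference of any member at 2 µg, with a wide error. It read 8.62, 8.47 and 8.39 log2 under 2 µg MCC, 8.39, 7.98 and 7.89 under 0.2 µg MCC, 8.22, 7.85 and 7.90 under 2 µg 102S and 8.19, 8.26 and 7.19 under 0.2 µg 102S. The 2 µg arrays of the peptides were apart, by 0.50 ± 0.25 log2 (interval -0.04 to 1.04, adjusted p = 0.252), while the lowest value, in 0.2 µg of 102S, came from the replicate 3 array.

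Psmc3 read 9.59, 9.69 and 9.46 log2 under 2 µg MCC, 9.53, 9.35 and 9.32 under 0.2 µg MCC, 9.29, 9.39 and 9.30 under 2 µg 102S and 9.36, 9.26 and 8.72 under 0.2 µg 102S. Psmc4 read 9.56, 9.44 and 9.99 log2, 9.36, 9.43 and 9.40, 9.33, 9.26 and 9.41, and 9.03, 9.23 and 9.49 in that order. For both ATPases the peptides were apart at 2 µg and overlapped at 0.2 µg. The differences at 2 µg were 0.25 ± 0.15 for Psmc3 (adjusted p = 0.348) and 0.33 ± 0.15 for Psmc4 (adjusted p = 0.194).

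The 14 Psmd genes encode the ubiquitin receptors, the scaffold and the lid of the cap as well as chaperones of its assembly. Of these, 11 lay above 0 at 2 µg (median 0.12 log2) and 11 at 0.2 µg (median 0.18), with none called. Psmd8, a lid subunit, read 9.61, 9.57 and 9.40 log2 under 2 µg MCC, 9.15, 8.97 and 8.54 under 0.2 µg MCC, 9.16, 9.03 and 8.99 under 2 µg 102S and 8.89, 8.85 and 8.30 under 0.2 µg 102S. The 2 µg arrays lay above the 0.2 µg arrays for each peptide, and 2 µg of MCC lay above all other arrays. Its peptide difference at 2 µg was 0.46 ± 0.18 (adjusted p = 0.135) and at 0.2 µg 0.21 ± 0.18.

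Psmd14, the deubiquitinase that removes the ubiquitin chain before degradation, had small errors. It read 10.38, 10.55 and 10.37 log2 under 2 µg MCC, 10.37, 10.45 and 10.41 under 0.2 µg MCC, 10.19, 10.29 and 10.28 under 2 µg 102S and 10.07, 10.17 and 10.25 under 0.2 µg 102S. All 6 MCC arrays lay above all 6 102S arrays. The differences were 0.18 ± 0.08 at 2 µg (adjusted p = 0.229) and 0.25 ± 0.08 at 0.2 µg (interval 0.06 to 0.43, adjusted p = 0.0747), neither of which was called.

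Psmd4, a ubiquitin receptor, read 9.54, 9.45 and 9.34 log2 under 2 µg MCC, 9.37, 9.31 and 8.79 under 0.2 µg MCC, 9.45, 9.34 and 9.25 under 2 µg 102S and 9.38, 9.43 and 8.83 under 0.2 µg 102S. The third arrays at 0.2 µg were the lowest for both peptides, the same 2 arrays that had the widest β-actin difference, and the peptide differences were 0.10 ± 0.18 and -0.06 ± 0.18. Psmd10, a chaperone of the cap known as gankyrin, read 8.57, 8.55 and 8.28 log2 under 2 µg MCC, 8.37, 8.27 and 8.05 under 0.2 µg MCC, 8.17, 8.18 and 8.34 under 2 µg 102S and 7.98, 8.05 and 7.57 under 0.2 µg 102S. Its MCC arrays overlapped with those of 102S at 2 µg (0.24 ± 0.15) and not at 0.2 µg, where the nearest values both rounded to 8.05 and the difference was 0.36 ± 0.15 (adjusted p = 0.135).

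The 3 activators with a probe set of their own lay mostly below 0, with 0 of 3 above it at 2 µg (median -0.19 log2) and 1 of 3 at 0.2 µg (median -0.11), none called. Psme4, a large single-chain activator of the nucleus, read 8.81, 8.96 and 8.85 log2 under 2 µg MCC, 8.91, 8.94 and 8.62 under 0.2 µg MCC, 9.13, 9.08 and 9.0 under 2 µg 102S and 9.12, 9.04 and 8.79 under 0.2 µg 102S. At 2 µg its MCC arrays lay below its 102S arrays, with a difference of -0.19 and an interval of -0.46 to 0.07. Its other tested probe sets gave 0.27 ± 0.52 and -0.12 ± 0.17 log2 at that dose, both with overlap. Psme1, a subunit of the activator induced by interferon, read 11.13, 11.16 and 11.03 log2, 11.34, 11.24 and 11.16, 11.25, 11.23 and 11.13, and 11.20, 11.24 and 11.01 in the same order of groups. Its differences were -0.10 ± 0.08 and 0.10 ± 0.08, and its groups overlapped at both doses. Psme3, the nuclear relative of Psme1, read 6.38, 6.66 and 5.75 log2 under 2 µg MCC, with the third array lowest, and between 6.5 and 6.79 on the 9 other arrays. Its difference at 2 µg was -0.35 ± 0.20 (adjusted p = 0.31).

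**Figure D3:**
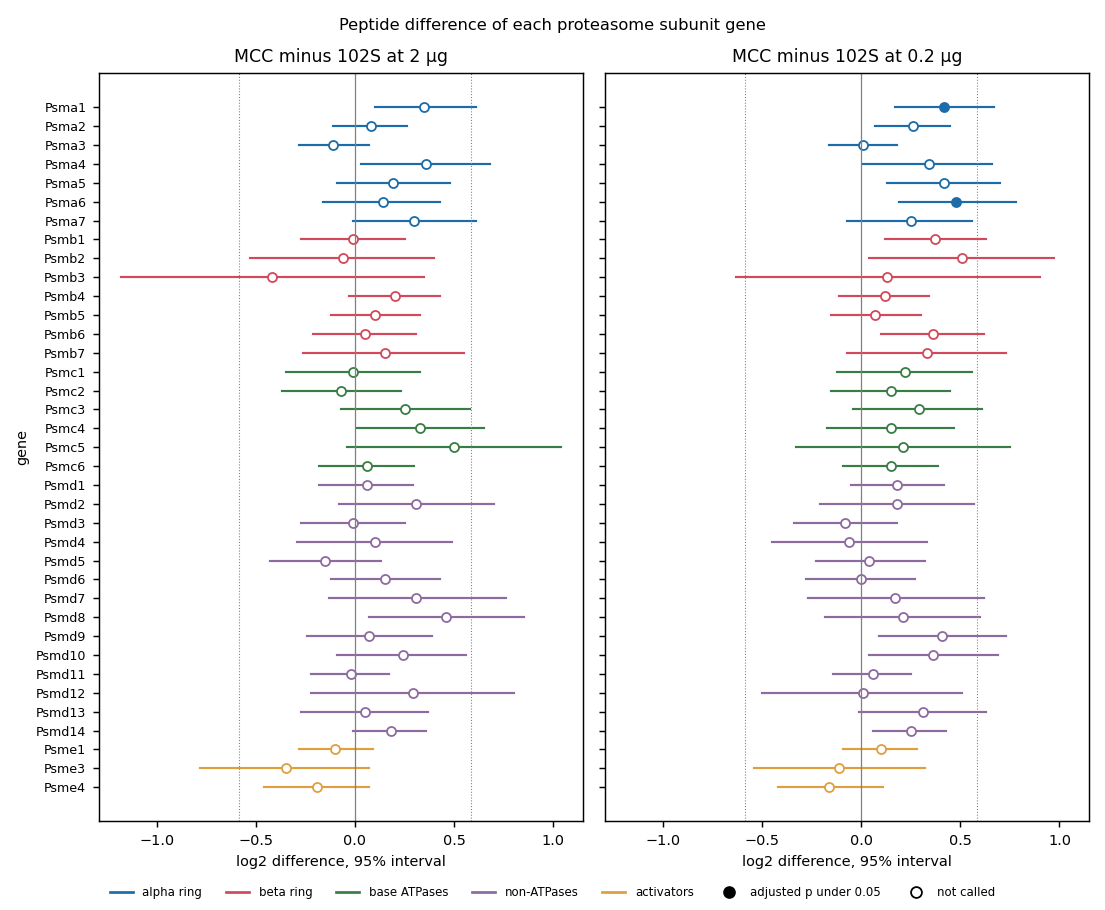
The MCC minus 102S difference of each tested subunit gene (horizontal axis, log2, circle with its 95% interval from limma) is given at 2 µg on the left and at 0.2 µg on the right, with genes on the vertical axis coloured by role and dotted lines at 1.5-fold. Filled circles, Psma1 and Psma6 at 0.2 µg, are the differences with an adjusted p under 0.05, and 25 and 32 of 37 circles lie right of 0.

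The remaining comparisons concerned the dose of each peptide and whether the peptide difference depended on it. They share arrays with the comparisons above. Between 2 µg and 0.2 µg of MCC none of the 37 members was called, against 1.76% of all probe sets (0.707% higher and 1.05% lower), and 3 had an unadjusted p under 0.05 (all higher at 2 µg, 17.9% of all probe sets). The differences were balanced, with 22 of 37 above 0, a median of 0.02 log2 and a range from -0.56 (Psmb3) to 0.64 (Psmd8). The other tested probe set of Psmb3 went the opposite way, by 0.32 ± 0.13 log2 with the 2 µg arrays entirely above, and was not called. For 26 members the interval excluded a change of 1.5-fold (45.2% of all probe sets). The arrays of the higher dose lay entirely above for Psma1, Psmb4, Psmc4 and Psmd8 (7.69% of all probe sets did so) and entirely below for Psmd11 (10.8%). These counts changed when single arrays were left out. Without the third MCC 2 µg array 14 lay above, and without the first MCC 0.2 µg array 12 lay above and 8 below. Without the second MCC 2 µg array 6 lay below. Each case had fewer arrays to overlap, and its share of all probe sets was not taken. For Psmd8 the difference of 0.64 ± 0.18 log2 was 1.55-fold, with an interval of 0.25 to 1.03 (adjusted p = 0.106 in limma). It was called in 4 of 24 alternatives, given here with the share of all probe sets called. They were the fits without the third 102S 0.2 µg array (2.47%) and without the first MCC 0.2 µg array (8.9%). The others had the sex-linked type (6.53%) or the replicate number (11.5%) as a block. Over the 24 alternatives the adjusted p of Psmd8 ran from 0.00675 to 0.413.

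Between 2 µg and 0.2 µg of 102S again no member was called, against 3.16% of all probe sets (2.65% higher and 0.508% lower), and 5 had an unadjusted p under 0.05 (Psma1, Psma2, Psmb1, Psmd9 and Psmd10, all higher at 2 µg), against 12.9% of all probe sets. Of the differences 33 of 37 lay above 0, where 49.3% of all probe sets did, although the median was only 0.10 log2 and the range ran from -0.15 (Psmd3) to 0.38 (Psmd8). Intervals within 1.5-fold numbered 26 of 37, against 51.2% of all probe sets. All alpha ring genes (7 of 7) and base ATPases (6 of 6) lay above 0, as did 6 of 7 beta ring genes, 12 of 14 Psmd genes and 2 of 3 activators. The 2 µg arrays lay entirely above for 9 members (Psma1, Psma2, Psma4, Psmb1, Psmb7, Psmc1, Psmd8, Psmd9 and Psmd10), against 12.8% of all probe sets, and entirely below for none, against 8.07%. Without the third 102S 0.2 µg array these counts were 14 and 3, with fewer arrays to overlap and the share of all probe sets not taken. The largest difference with respect to its error was that of Psmb1, 0.37 ± 0.12 log2 (adjusted p = 0.151).

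The interaction, the peptide difference at 2 µg minus that at 0.2 µg, was called for no member, against 0.766% of all probe sets (0.0737% above 0 and 0.692% below). It was below 0 for 24 of 37 members, with a median of -0.09 log2 (all probe sets -0.016), that is, the MCC difference was the larger at the lower dose. The medians by role were -0.31 for the beta ring, -0.20 for the activators, -0.12 for the alpha ring, -0.06 for the base ATPases and 0.00 for the Psmd genes. Psmb1 was the single member with an unadjusted p under 0.05 (8.63% of all probe sets), at -0.39 ± 0.17 log2 (adjusted p = 0.544 in limma). A difference between doses in the effect of the peptide was thus not shown for any subunit, and only 16 of 37 intervals excluded a 1.5-fold interaction (21.5% of all probe sets).

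Further probe sets gave a check within the genes. Beyond the representatives, 23 probe sets of 15 members passed the filter, and none was called in any comparison. The sign was that of the representative for 17 of 23 at 2 µg and 19 of 23 at 0.2 µg, and for 14 in each comparison of doses. The lowest adjusted p among them was 0.0532, the Psma6 probe set given above. Between doses of MCC some differed by more than the 0.64 log2 of Psmd8, with wide errors. A probe set of Psmd4 gave 0.96 ± 0.43, a probe set of Psme4 0.75 ± 0.52 and a probe set of Psmb1 -0.72 ± 0.32.

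The subunits of the immunoproteasome, which replace the proteolytic beta subunits and which lymphocytes express constitutively, were not called in any comparison, 3 of 3 being tested. Psmb8 read 10.89, 10.81 and 10.62 log2 under 2 µg MCC, 10.99, 10.82 and 10.67 under 0.2 µg MCC, 11.02, 10.98 and 10.85 under 2 µg 102S and 11.01, 11.02 and 10.69 under 0.2 µg 102S. Its groups overlapped at both doses. The median MCC difference of Psmb8, Psmb9 and Psmb10 was -0.18 log2 at 2 µg and -0.06 at 0.2 µg, and that between doses -0.06 for MCC and 0.04 for 102S.

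Of 38 listed partners of the proteasome, namely assembly factors, shuttle factors, ubiquitin activating enzymes, the p97 segregase and regulators of subunit transcription, 29 were measured and tested. At 2 µg 0 were higher and 3 lower with MCC, where 4.04% and 6.22% of all probe sets were, and at 0.2 µg 2 were higher and 4 lower (7.84% and 6.45%). No partner was called between doses or for the interaction. Nfe2l2, the transcription factor of the antioxidant response, read 7.64, 7.80 and 7.31 log2 under 2 µg MCC, 7.82, 7.68 and 7.71 under 0.2 µg MCC, 8.69, 8.69 and 8.49 under 2 µg 102S and 9.07, 9.0 and 8.67 under 0.2 µg 102S. All 6 MCC arrays lay below all 6 102S arrays. With MCC it was lower than with 102S by 1.04 ± 0.15 log2 at 2 µg (adjusted p = 0.00107) and by 1.18 ± 0.15 at 0.2 µg (adjusted p = 0.000202), and was called in all 24 alternatives at both doses. Nfe2l1, the factor that raises subunit transcription when the proteasome is inhibited, was not called and lay between 7.35 and 7.79 log2 on all arrays.

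Assembly factors of the core differed in direction. Pomp, the maturation protein of the core, read 10.34, 10.68 and 10.29 log2 under 2 µg MCC, 10.24, 10.69 and 10.55 under 0.2 µg MCC, 9.93, 10.37 and 10.25 under 2 µg 102S and 9.70, 9.76 and 10.08 under 0.2 µg 102S. At 0.2 µg it was higher with MCC by 0.65 ± 0.16 log2, a 1.57-fold difference (adjusted p = 0.0179). The peptides did not overlap at that dose and overlapped at 2 µg. Psmg1, a chaperone of the alpha ring, was higher with MCC by 0.55 ± 0.14 at 0.2 µg (adjusted p = 0.0225), while Psmg2, its partner in the same heterodimer, was lower with MCC by 0.43 ± 0.12 at 2 µg (adjusted p = 0.0381). The call of Pomp held in 19 of 24 alternatives and that of Psmg1 in 18. Both were lost, among others, without the first 102S 0.2 µg array (adjusted p = 0.0746 and 0.0724) and without the second MCC 0.2 µg array (0.0915 and 0.108). Over the alternatives the adjusted p of Psmg2 at 2 µg ran from 0.00555 to 0.268, with 11 of 24 under 0.05.

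The shuttle factors Ubqln1 and Ubqln2, which carry ubiquitinated proteins to the proteasome, were lower with MCC at 0.2 µg, with differences of -0.67 ± 0.19 (adjusted p = 0.0347) and -0.80 ± 0.14 log2 (adjusted p = 0.00189). The call of Ubqln2 held in 24 of 24 alternatives and that of Ubqln1 in 16, its adjusted p running from 0.000216 to 0.339. Nae1, part of the enzyme that activates the ubiquitin-like protein NEDD8, was lower with MCC. The difference from 102S was -0.50 ± 0.10 log2 at 2 µg (adjusted p = 0.00758) and -0.36 ± 0.10 at 0.2 µg (adjusted p = 0.0311). Its call at 0.2 µg held in 16 of 24 alternatives.

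Other large complexes were set beside the subunits as a description. Of 46 tested cytosolic ribosomal protein genes, 0 were higher and 5 lower with MCC at 2 µg, and 3 higher and 1 lower at 0.2 µg, with medians of -0.03 and 0.04 log2. Over all probe sets 4.04% were higher and 6.22% lower at 2 µg, and 7.84% and 6.45% at 0.2 µg. Of 75 tested subunits of the respiratory chain and ATP synthase, 5 were higher and 1 lower at 2 µg, and 15 higher and 0 lower at 0.2 µg, with medians of 0.01 and 0.32. The proteasome medians of 0.10 and 0.18 lay above those of the ribosomal genes at both doses and, at 0.2 µg, below that of the respiratory genes. The difference between these sets was not tested.

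**Figure D4:**
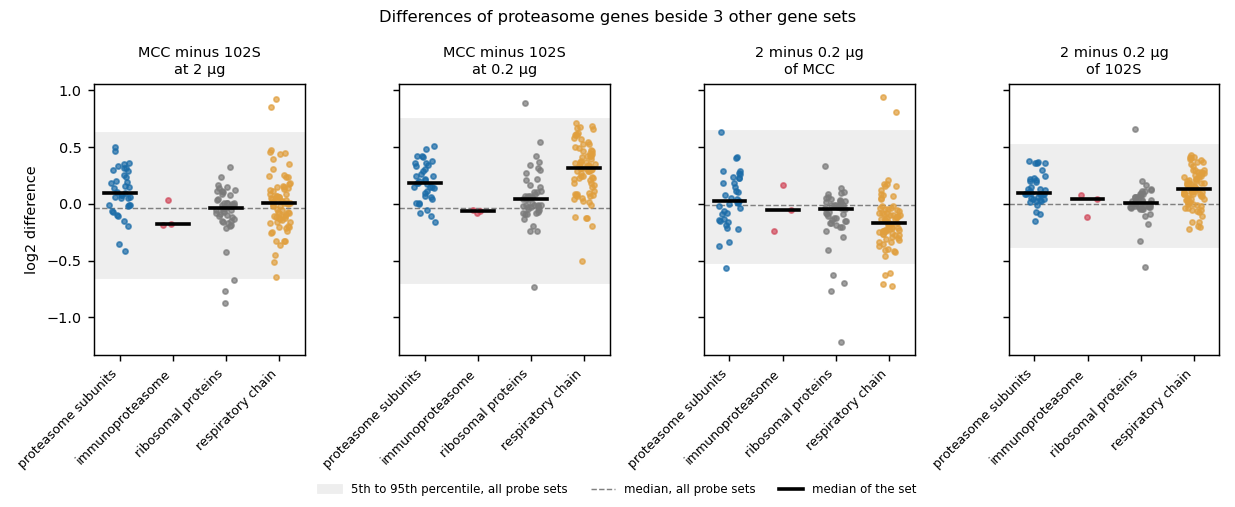
Points are the log2 differences (vertical axis) of single genes in 4 gene sets (horizontal axis) for each of 4 comparisons, with the set median as a black line and the range from the 5th to the 95th percentile of all probe sets in grey. The proteasome subunits have medians of 0.10, 0.18, 0.02 and 0.10 and lie mostly inside the grey range. For the dose of MCC, Psmd8 at 0.64 reaches its upper edge and Psmb3 at -0.56 lies below its lower edge (-0.52). The other tested probe set of Psmb3, which is not drawn, gave 0.32.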

How the data were processed

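The log2 values are those the authors deposited, 1 per probe set and array, on Affymetrix mouse arrays. The labels' protocols give 100 ng of total RNA and an in vitro transcription of 16 h. The submitters' processing notes list GCOS 1.4. The summary method, background correction and scaling are not given in the sources used here, and the log2 scale was read from the values (1.86 to 14.7). Array medians differed by at most 0.093 log2, replicates correlated between 0.956 and 0.993 and 0 arrays were identical. Arrays carry no depth, so their number limits the precision.

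Probe sets were named from the platform annotation, and 20393 of 22690 had 1 symbol, 691 several and 1606 none. All 38 member symbols matched RefSeq. After removal of 64 controls and of probe sets whose mean was below 4.47 log2, the 40th percentile, 13576 were tested. They were fitted with lmFit and eBayes (intensity trend) of limma 3.58.1 in R 4.3.3, with 4 group means, 12 arrays and 8 residual degrees of freedom. Tests were 2-sided and p-values adjusted by Benjamini-Hochberg over all 13576, with a threshold of 0.05. Errors of differences are standard errors. The fit was tested on simulated arrays.

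Per-array values are given for up to 3 genes of each role with the smallest F-test p over the groups and for Psmb5, Psmb6, Psmb7, Psmd4 and Psmd14. Ribosomal and respiratory genes were taken by symbol pattern. The members and lists were chosen with earlier results of these data known. Alternatives changed the normalization, filter, probe set choice, trend, arrays, replicate block, sex-linked type and β-actin covariate, and left out each array. Leaving out the 2 arrays with the widest β-actin difference was added after seeing the data. In the labels the replicate numbers recur in every group, and 16 of 18 same-numbered pairs correlated above 0.1 in their deviations (range -0.29 to 0.82). Replicate 1 also read as female in every group. Because not every pair did so and the labels do not call the numbers pairs, the main fit has no block. Whether the numbers mark shared experiments is not known, and counts with the replicate number as a block are given beside the main ones.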

Additional observations from a re-analysis of the deposited data

How the results depend on the processing

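The median difference of the subunits kept its sign under every alternative at 2 µg (0.01 to 0.15 log2), at 0.2 µg (0.09 to 0.26), between doses of 102S (0.08 to 0.13) and for the interaction (-0.17 to -0.03), while that between doses of MCC ran from -0.07 to 0.09. The number of subunits called moved more, and so did the share of all probe sets called, given in brackets. For the peptides at 2 µg (0 called, 10.3%), it was 1 with quantile normalization (11.7%), 4 with only the 6 arrays compared (12.2%), 7 with the β-actin covariate (24.6%) and 4 without the 2 arrays of widest β-actin difference (12.3%). At 0.2 µg (2 called, 14.3%), it was 4 with quantile normalization (16.8%), 1 with median centring (15.6%), 4 with the stricter filter (18.5%), 0 without the intensity trend (13.4%), 0 with only the 6 arrays compared (7.88%), 8 with the sex-linked type as a block (22.1%) and 17 with the β-actin covariate (26.8%). Between doses of MCC (0 called, 1.76%), it was 1 with the sex-linked type as a block (6.53%) and 1 with the β-actin covariate (3.98%), and between doses of 102S (0 called, 3.16%) 1 (4.88%) and 3 (10.5%). With 1 array left out, the count ran from 0 to 1 at 2 µg (5.16% to 11.8%) and 0 to 6 at 0.2 µg (7.74% to 20.5%). It ran from 0 to 1 for the dose of MCC (0.449% to 8.9%). For the dose of 102S (1.55% to 3.68%) and the interaction (0.457% to 1.05%) it ran from 0 to 0. The interaction had 0 calls under every alternative run.

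With the replicate number as a block, 3 subunits were called at 2 µg (18.3% of all probe sets), 9 at 0.2 µg (25.7%), 1 for the dose of MCC (11.5%) and 2 for that of 102S (6.1%). Same-numbered arrays deviated together in 16 of 18 pairs, and 10 of 12 arrays correlated best with their own number, a hint from the data and not from the design. The cause of these shifts was not tested. The median standard error of a difference was 0.138 log2 for the subunits and 0.18 for all probe sets.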
